A study of Mus musculus with 32 samples.

Results

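The nuclear genes for the subunits of oxidative phosphorylation were examined in hypothalamus of mice, a part of the brain that governs appetite, energy expenditure and the release of pituitary hormones. Members were the protein-coding genes with a symbol of the Nduf, Sdh, Uqcr, Cox4 to Cox8 or Atp5 families, chosen by symbol and not by a measured value. They numbered 86 of the 21897 protein-coding genes and 55401 gene rows of the table. By name, 38 belonged to complex I, 4 to complex II, 8 to complex III, 18 to complex IV and 18 to complex V. The names leave out Cyc1, the cytochrome c1 of complex III, and place Ndufa4 and its paralog Ndufa4l2 with complex I, although Ndufa4 is now regarded as a subunit of complex IV.

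The libraries came from 32 male C57BL/6NTac mice that were hemizygous knockouts of the X-linked receptor gene Gpr101 or wild-type littermates. All mice were group-housed and ate standard chow until 7 weeks. The groups were wild type on control diet (WT_CD, 7 mice), knockout on control diet (KO_CD, 8 mice), wild type on high-fat diet (WT_HFD, 8 mice) and knockout on high-fat diet (KO_HFD, 9 mice). The high-fat diet drew 60% of its energy from fat and was given until the mice were killed. Age was 149 days in 6 WT_CD, 5 KO_CD, 1 WT_HFD and 1 KO_HFD mice and 150 days in the others, so that age and diet largely cannot be told apart. Total RNA of the whole hypothalamus was sequenced as stranded paired-end libraries.

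Oxidative phosphorylation is the chain of inner mitochondrial membrane complexes that passes electrons from nutrients to oxygen and uses the resulting proton gradient to make ATP. Complexes I and II take electrons from NADH and succinate, complex III passes them from ubiquinol to cytochrome c, complex IV hands them to oxygen, and complex V is the ATP synthase. Most subunits are encoded in the nucleus and a few core subunits of complexes I, III, IV and V by the mitochondrial genome, so that an enzyme is built from transcripts of both. Neurons rely heavily on this pathway for ion pumping and synaptic transmission.

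Reads on genes ranged from 25.3 to 34.2 M per library with a median of 27.7 M. Gpr101 held 2471 to 3472 reads in every wild-type library, 0 reads in all KO_CD libraries and 1 read over the KO_HFD libraries. Markers of hypothalamus, neurons, oligodendrocytes and astrocytes were all detected in each group. Blood transcripts, led by the hemoglobin genes, were more abundant on high-fat diet. The sum of 5 blood markers had a median normalized count of 13364 in WT_CD, 13175 in KO_CD, 19098 in WT_HFD and 19313 in KO_HFD. Library WT_HFD replicate 6 had the highest mean over the members relative to its group, and KO_HFD replicate 9 the lowest. In KO_HFD replicate 8 the transcripts of Ndufa12, mt-Cytb and mt-Co2 were far below the other libraries of its group. Members at an unadjusted p under 0.05 are given without KO_HFD replicate 8 where this moves their log2 fold change by more than 1.5 times.

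Sequences upstream of the genes are shown first, because nuclear respiratory factor 1 (NRF1), GABPA of the ETS family and YY1 are textbook regulators of these promoters. Promoter windows of RefSeq (GRCm38.p6), from 250 bases before to 50 bases after the gene start, were found for 67 member symbols and not found for 18. The 67 symbols had 72 windows, and a symbol or gene was counted once if any of its windows held a motif. For 61 of the 72 windows, bases 6 to 25 after the start were found in an annotated transcript of the gene. The NRF1 motif, GCGCA followed by any base and GCGC, was searched on both strands like the other motifs. It was found for 17 of the 67 symbols (25.4%). This compares with 5.19% of all 27025 genes with a window, or 7.17% of the 17492 protein-coding ones. By complex, the motif was found for 7 of 33 symbols of complex I, 2 of 3 of complex II, 1 of 5 of complex III, 1 of 13 of complex IV and 6 of 13 of complex V. The member with such a motif ahead of its RefSeq start that varied most closely with the other members is shown for each complex that had one, as 50 bases on the gene's own strand with the motif in capitals. The match in complex III, in the window of Uqcrc1, did not end ahead of the start. The stretch of Ndufa5 lies 277 to 326 bases inside the gene as annotated for the count table, whose start differs from that of RefSeq, and the other 3 lie ahead of the start in both.
Ndufa5, complex I, GRCm38 chr6:24527687-24527736, minus strand: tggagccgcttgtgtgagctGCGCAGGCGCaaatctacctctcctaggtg
Sdhd, complex II, GRCm38 chr9:50603899-50603948, minus strand: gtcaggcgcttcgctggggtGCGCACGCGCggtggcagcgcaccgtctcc
Cox6a1, complex IV, GRCm38 chr5:115349046-115349095, minus strand: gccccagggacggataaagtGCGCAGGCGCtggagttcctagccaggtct
Atp5h, complex V, GRCm38 chr11:115420031-115420080, minus strand: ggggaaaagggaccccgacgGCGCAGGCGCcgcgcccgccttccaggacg

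The ETS motif CCGGAAG was found for 16 of the 67 symbols (23.9%) against 9.93% of all genes and 12.95% of protein-coding ones. The YY1 motif AAGATGGC was found for 9 (13.4%) against 3.19% and 3.57%. The letters TATAAA of a TATA box were found for 7 symbols (10.4%) against 15.7% of all genes and 14.8% of protein-coding ones. At least 1 of the NRF1, ETS and YY1 motifs was found for 36 symbols, and both the NRF1 and the ETS motif for 4. The YY1 motif was found for 7 symbols of complex I and 2 of complex V. Such a match describes the letters of a window and does not show that a factor was bound in these mice.

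The subunit genes were abundant and unequal. Levels between genes are compared as normalized counts per kb of mRNA in WT_CD, where a normalized count is a read count divided by the size factor of its library. The highest value was that of Atp5b, the catalytic beta subunit of the ATP synthase (GRCm38 chromosome 10, 128083273 to 128090391, plus strand), at 12280 per kb. Cox4i1, a regulatory subunit of complex IV (chromosome 8, 120668222 to 120674207, plus strand), followed with 11677 per kb, and Cox8a, one of the smallest subunits of that complex, with 10027 per kb. These 3 genes stood above all other members on this scale, whichever complex they belonged to.

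Within complexes the spread of levels differed. In complex II the lowest gene, the membrane anchor Sdhc, had 954 per kb and the highest, the flavoprotein Sdha, 4105 per kb, a range of 4.30-fold. In complex III the range was 4.08-fold, from the core protein gene Uqcrc2 (1763 per kb) to the hinge protein gene Uqcrh (7197 per kb). These ranges depend on the length used: per kb of all annotated exons, chosen after seeing the data, they were 6.85-fold for complex II and 5.45-fold for complex III, where Uqcrq was then the lowest at 1145 per kb. In complex V the range was 30.05-fold, down to Atp5s, a coupling factor of the synthase, at 409 per kb. In complex I it was 141-fold and in complex IV 235-fold, and in both the low end was a second isoform of another subunit, Ndufa4l2 (47.8 per kb) and Cox4i2 (49.7 per kb).

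Among the groups of complex I subunits, the medians were alike. The 10 subunits of the NADH-oxidizing module had a median of 2389 per kb, the 5 of the quinone-reducing module 2454 per kb and 20 of the membrane arm 1935 per kb. In complex V the 5 genes of the F1 head and central stalk had a median of 4046 per kb and the 4 of the peripheral stalk 3774 per kb. The 3 genes that encode the same membrane c subunit differed: Atp5g3 supplied 62.0% ± 1.12 of their length-corrected counts in WT_CD, Atp5g2 29.05% ± 1.13 and Atp5g1 8.94% ± 0.28 (SD, n = 7). On the length of all annotated exons their shares of the mean levels were 68.6%, 25.96% and 5.43%. Without a length correction, Atp5g3 held 52.11% of their counts in WT_CD, Atp5g1 27.98% and Atp5g2 19.91%. The order of Atp5g1 and Atp5g2 thus depended on the length correction, while Atp5g3 was highest either way. Assignment to modules was made after the values were seen.

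**Figure D1:**
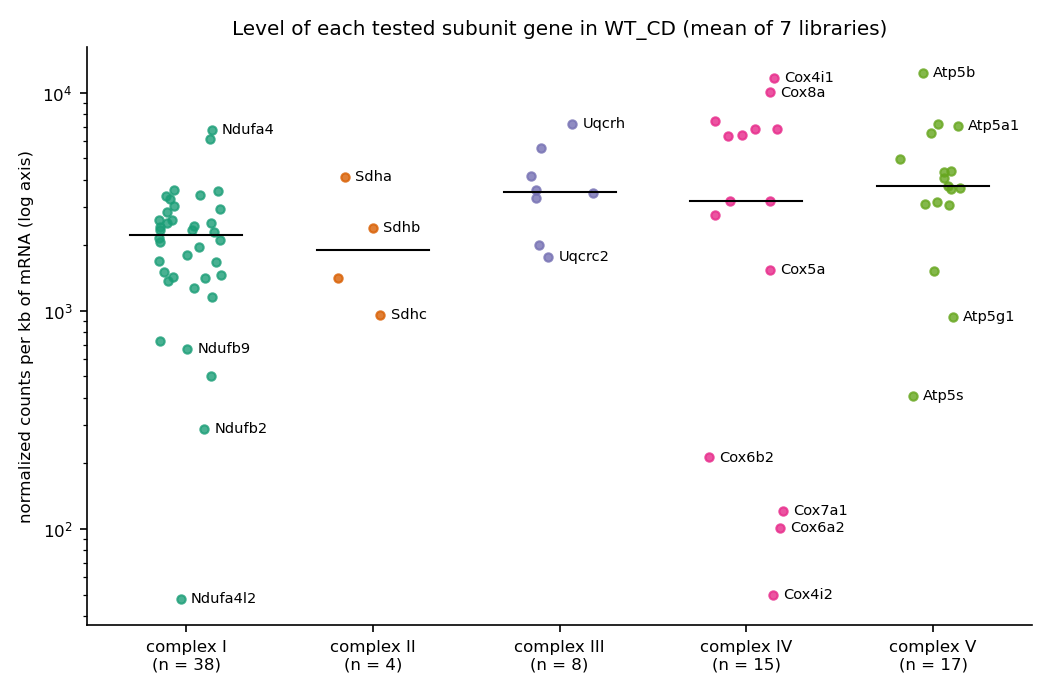
Normalized counts per kb of mRNA (log axis) of the 82 tested subunit genes in WT_CD, each point the mean of 7 libraries and each black line the median of a complex. Atp5b, Cox4i1 and Cox8a are the highest, and Ndufa4l2 and Cox4i2 lie near 50 per kb, with Cox6a2, Cox7a1 and Cox6b2 next to Cox4i2 at the low end of complex IV.

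Complex IV has alternative subunits that other tissues use, and nearly all of its transcripts were of the common forms. Per length, Cox4i1 made up 99.6% ± 0.05 of the Cox4 counts in WT_CD (SD, n = 7), with Cox4i2, an oxygen-responsive form of lung, supplying 0.42% ± 0.05. The heart and skeletal muscle form Cox6a2 supplied 1.35% ± 0.26 of the Cox6a counts, and the testis form Cox6b2 3.01% ± 0.54 of the Cox6b counts. The muscle form Cox7a1 gave 1.86% ± 0.36 of the Cox7a counts, while Cox7a2 and Cox7a2l, the latter a supercomplex assembly factor, gave 49.1% ± 1.98 and 49.0% ± 2.03. The testis genes Cox7b2 and Cox8c and the muscle gene Cox8b were too low to test, with mean normalized counts of 3.55 and 2.72 for Cox7b2 and Cox8b and 1 read in all libraries for Cox8c. The remaining untested row was a second identifier of Atp5o with 0 reads, which overlaps the first on the same strand.

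The counts of a few members carry a limit of annotation. Ndufb2, Ndufb8, Ndufb9 and Atp5o each share their strand and position with a second gene model that was listed at 0 in all libraries, and reads that fit both models could be lost to counting. Ndufb2 (288 per kb) and Ndufb9 (671 per kb) were among the 5 lowest members of complex I. What this overlap does to their counts was not tested.

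The total over the members was close to constant across the groups. The 86 genes took 0.853% ± 0.0187 of reads in WT_CD (SD, n = 7), 0.868% ± 0.0257 in KO_CD (n = 8), 0.864% ± 0.0308 in WT_HFD (n = 8) and 0.862% ± 0.0286 in KO_HFD (n = 9). The group means differed by less than the SD within KO_CD, WT_HFD or KO_HFD. Atp5b alone gave 9.82% of the reads of the members, and Atp5a1, the alpha subunit of the same catalytic head, 7.58%.

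By complex, the mean log2(normalized count + 1) over the members was compared across the 4 groups. For complex I it was 10.61 ± 0.04 in WT_CD, 10.64 ± 0.05 in KO_CD, 10.63 ± 0.06 in WT_HFD and 10.62 ± 0.06 in KO_HFD. For complex II the values were 11.65 ± 0.03, 11.67 ± 0.04, 11.66 ± 0.04 and 11.65 ± 0.03 in the same order, and for complex III 11.38 ± 0.04, 11.40 ± 0.05, 11.38 ± 0.06 and 11.37 ± 0.06. The group means of these complexes lay within about 1 SD of each other. For complex V they were 11.59 ± 0.04, 11.62 ± 0.05, 11.60 ± 0.06 and 11.58 ± 0.06.

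Complex IV had the widest range of group means, at 10.20 ± 0.04 in WT_CD, 10.22 ± 0.07 in KO_CD, 10.28 ± 0.08 in WT_HFD and 10.24 ± 0.08 in KO_HFD. Most of this came from its low second isoforms. The 11 common subunits had means of 11.77 ± 0.04, 11.81 ± 0.06, 11.80 ± 0.07 and 11.79 ± 0.08 in the same order of groups, and the 4 second isoforms tested 5.89 ± 0.06, 5.86 ± 0.15, 6.11 ± 0.20 and 5.97 ± 0.13. In every complex the libraries of all 4 groups overlapped.

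**Figure D2:**
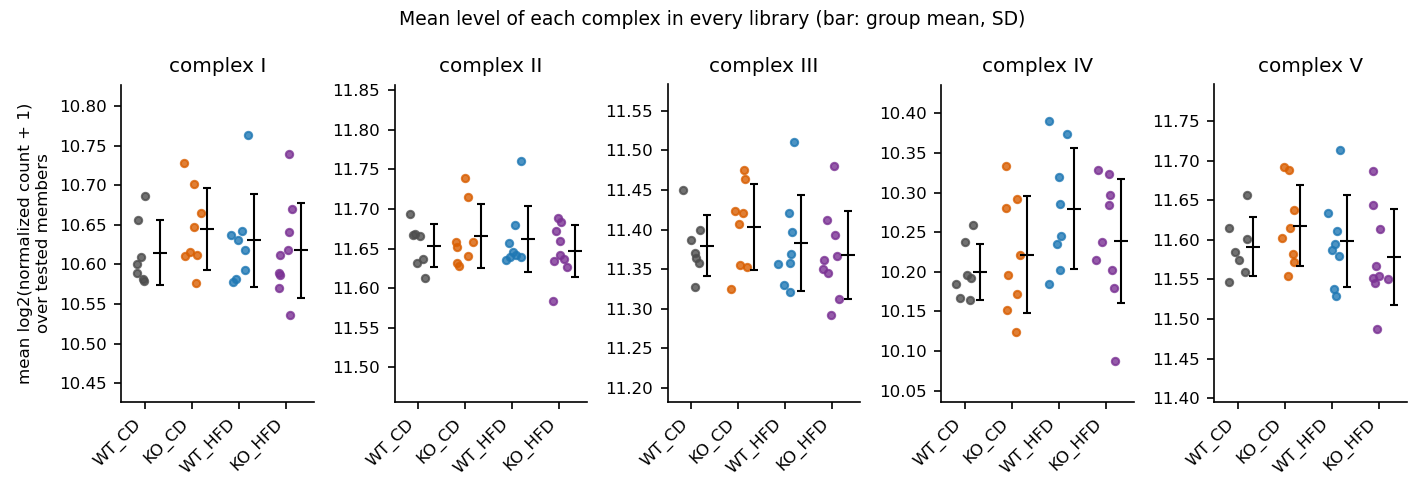
Mean log2(normalized count + 1) over the tested members of each complex in every library, by group, with the group mean and SD as a bar to the right of the points; all panels span the same height of the log2 scale. The 4 groups overlap in every complex, and the single high point of WT_HFD in complexes I, II, III and V is replicate 6.

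Knockout was compared with wild type on control diet to ask whether loss of Gpr101 alters these genes without a dietary load. No member passed, 0 of 82 at an adjusted p under 0.05 by limma, where 0.00502% of all 19928 genes tested passed. At an unadjusted p under 0.05 there were 4 members, a share of 4.88% beside 4.12% of all genes, and limma-voom on the recovered reads also called 0. Of the log2 fold changes 67 were above 0 and 15 below, with a median of 0.03, and 49.8% of all genes were above 0. The medians by complex were 0.03 for I, 0.01 for II, 0.01 for III, 0.04 for IV and 0.03 for V. The SD of the complex means between libraries was 0.03 to 0.07 on the log2 scale in WT_CD and KO_CD. Because the members vary together from library to library, their number is no measure of how often such a tilt would arise.

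Atp5l, which encodes subunit g of the membrane sector where synthase dimers join (chromosome 9, 44912557 to 44920742, minus strand), had the smallest p on control diet. Its normalized count ran from 1794 over a median of 1951 to 2086 in WT_CD and from 1970 over 2128 to 2395 in KO_CD. Knockouts lay higher, with overlap between 1970 and 2086. The log2 fold change was 0.14 (SE 0.06, limma adjusted p = 1), and the range was 1898 to 2364 in WT_HFD and 1776 to 2550 in KO_HFD. On high-fat diet the log2 fold change of Atp5l between genotypes was -0.03 (SE 0.05).

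The other 3 members at an unadjusted p under 0.05 belong to complex I. They were the iron-sulfur subunit gene Ndufv2 (log2 fold change 0.06, SE 0.03), the accessory subunit gene Ndufa6 of the matrix arm (0.07, SE 0.03) and the membrane arm gene Ndufa11 (0.08, SE 0.04). Of the members listed as core subunits, Ndufs1, the largest iron-sulfur subunit of complex I, had a value of 0.04 (SE 0.03). Ndufv1, which binds NADH, had 0.04 (SE 0.03) and Sdha 0.02 (SE 0.02). Uqcrc1, a core protein of complex III, had 0.05 (SE 0.02), Cox4i1 0.05 (SE 0.03) and Atp5b 0.02 (SE 0.02). Atp5b ran from 22390 over a median of 23532 to 24285 normalized counts in WT_CD and from 23209 over 23860 to 24580 in KO_CD, with the groups overlapping over most of their range. Among the common complex IV subunits Cox6a1 had a value of 0.05 (SE 0.03), Cox6b1 0.07 (SE 0.04), Cox7a2 0.04 (SE 0.04) and Cox8a 0.05 (SE 0.05). For 77 of the 82 members the 95% interval of the difference lay within 1.2-fold in either direction, and for all 82 within 1.5-fold.

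The same genotype comparison under a fat load asked whether the knockout alters these genes there. Again 0 of 82 members passed by limma (0.00502% of all genes passed), with 0 by limma-voom and 5 at an unadjusted p under 0.05, a share of 6.10% beside 5.15% of all genes. The 5 were 2 without KO_HFD replicate 8 and 7 without the 3 libraries farthest in the mean of the members. Shares of all genes, here and below, are from the fit with all libraries. The median log2 fold change was -0.01, with 35 members above 0 and 47 below. By complex the medians were 0.0009 for I, -0.01 for II, -0.01 for III, -0.002 for IV and -0.03 for V. The 95% interval lay within 1.2-fold for 76 members and within 1.5-fold for all 82.

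Ndufa7, an accessory subunit of the matrix arm (chromosome 17, 33824572 to 33838317, plus strand), had the smallest p. It ran from 1755 over a median of 1866 to 2036 normalized counts in WT_HFD and from 1548 over 1805 to 1916 in KO_HFD. The lowest Ndufa7 value was KO_HFD replicate 8. The knockouts lay lower with a wide overlap, and the log2 fold change was -0.08 (SE 0.03, limma adjusted p = 0.948) with this library and -0.06 without it.

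Ndufa12, another accessory subunit of that arm (chromosome 10, 94198720 to 94221443, plus strand), ran from 1819 over 1998 to 2197 in WT_HFD and from 1233 over 1912 to 2048 in KO_HFD. Its lowest value was KO_HFD replicate 8 and the next lowest, at 1578, KO_HFD replicate 2. The log2 fold change of Ndufa12 was -0.15 (SE 0.07, limma adjusted p = 0.948) with all libraries and -0.09 (adjusted p = 0.999) without replicate 8. Part of the difference of Ndufa12 thus rested on 1 library.

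The other members at an unadjusted p under 0.05 on high-fat diet were Ndufv3, a small subunit of the NADH module (log2 fold change -0.09, SE 0.04, and -0.06 without KO_HFD replicate 8), and the muscle isoforms Cox7a1 (-0.28, SE 0.11) and Cox6a2 (-0.29, SE 0.12, and -0.20 without that library). Atp5b had a value of 0.03 (SE 0.02), Cox4i1 0.00 (SE 0.03), Uqcrc1 -0.02 (SE 0.02), Sdha 0.01 (SE 0.02) and Ndufs1 0.04 (SE 0.02). None of these core genes was at an unadjusted p under 0.05 in this comparison, while Ndufs1 was for genotype averaged over diets, as given below. Uqcrfs1, the Rieske iron-sulfur protein of complex III, had a value of -0.01 (SE 0.03) and Cox5a, a subunit of complex IV, -0.08 (SE 0.05).

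Diet was compared within each genotype, with age and diet moving together as stated above. In wild type 0 of 82 members passed by limma, where 0.0251% of all genes passed, and 0 passed by limma-voom. There were 2 members at an unadjusted p under 0.05, a share of 2.44% beside 7.39% of all genes. The median log2 fold change was 0.01, with 56 members above 0 and 26 below, and the medians by complex were 0.01 for I, 0.002 for II, 0.006 for III, 0.03 for IV and 0.01 for V. The intervals lay within 1.2-fold for 76 members and within 1.5-fold for 81.

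Both members at an unadjusted p under 0.05 were muscle isoforms of complex IV. Cox7a1 (chromosome 7, 30184144 to 30186078, plus strand) ran from 37.6 over 52.1 to 69.3 normalized counts in WT_CD and from 56.6 over 64.5 to 82.8 in WT_HFD. Its log2 fold change was 0.32 (SE 0.12, limma adjusted p = 0.593). Cox6a2 (chromosome 7, 128205435 to 128206387, minus strand) ran from 52.7 over 70.9 to 85.0 in WT_CD and from 65.1 over 85.0 to 95.7 in WT_HFD, with a log2 fold change of 0.32 (SE 0.13, limma adjusted p = 0.621). For both genes WT_HFD was the highest of the 4 groups and every group overlapped it.

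In KO_CD, Cox7a1 ran from 49.9 over 53.7 to 61.02 and Cox6a2 from 57.3 over 67.6 to 86.7 normalized counts. In KO_HFD they ran from 39.5 over 55.4 to 67.6 and from 41.0 over 68.7 to 86.8, and the lowest Cox6a2 value was again KO_HFD replicate 8. The test of the difference between the diet effects of the genotypes gave -0.32 for Cox7a1 (SE 0.17, limma adjusted p = 0.999) and -0.29 for Cox6a2 (SE 0.18, limma adjusted p = 0.999). Striated muscle markers, 3 of 4 tested, summed to 126 to 202 normalized counts in WT_CD, 140 to 190 in KO_CD, 145 to 284 in WT_HFD and 112 to 162 in KO_HFD. Between genotypes on high-fat diet all 3 of these markers were below 0, with a median log2 fold change of -0.28, and for diet in wild type 2 of 3 were above 0 with a median of 0.10. With blood and meningeal marker levels as terms in the fit, the diet values in wild type were 0.26 for Cox7a1 and 0.25 for Cox6a2. The mean log2 level of the 3 tested muscle markers was also compared over the libraries, after removal of the group means. It correlated with Cox7a1 at r = -0.36 and with Cox6a2 at r = 0.26. The highest r of Cox6a2 was with the 1 tested testis marker (0.57), then with 9 hypothalamic markers (0.50). The testis markers were low, with a sum of 13.7 to 37.2 normalized counts in WT_CD. With 3 parvalbumin interneuron markers the r of Cox6a2 was 0.31, and its lowest r was with 8 neuronal markers (-0.45). Whether muscle tissue contributes to either gene was not tested.

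The testis form Cox6b2 ran from 74.0 over 84.97 to 130.2 normalized counts in WT_CD, from 64.2 over 89.5 to 132.2 in KO_CD, from 71.8 over 104 to 163 in WT_HFD and from 80.0 over 98.3 to 137 in KO_HFD. The groups overlapped over most of their ranges, and the log2 fold change for diet in wild type was 0.27 (SE 0.16). Over the libraries, after removal of the group means, Cox6b2 varied with the mean log2 level of 6 meningeal markers (r = 0.71) and of 6 mural cell markers (r = 0.65). The summed count of these meningeal markers ran from 1257 to 2998 normalized counts in WT_CD, 1064 to 4216 in KO_CD, 1092 to 5058 in WT_HFD and 1281 to 5074 in KO_HFD. Its part in the level of Cox6b2 was not tested. Cox7a1 varied most with 5 endothelial markers (r = 0.55), and Cox4i2 had a log2 fold change of 0.26 (SE 0.15) for diet in the knockout.

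**Figure D3:**
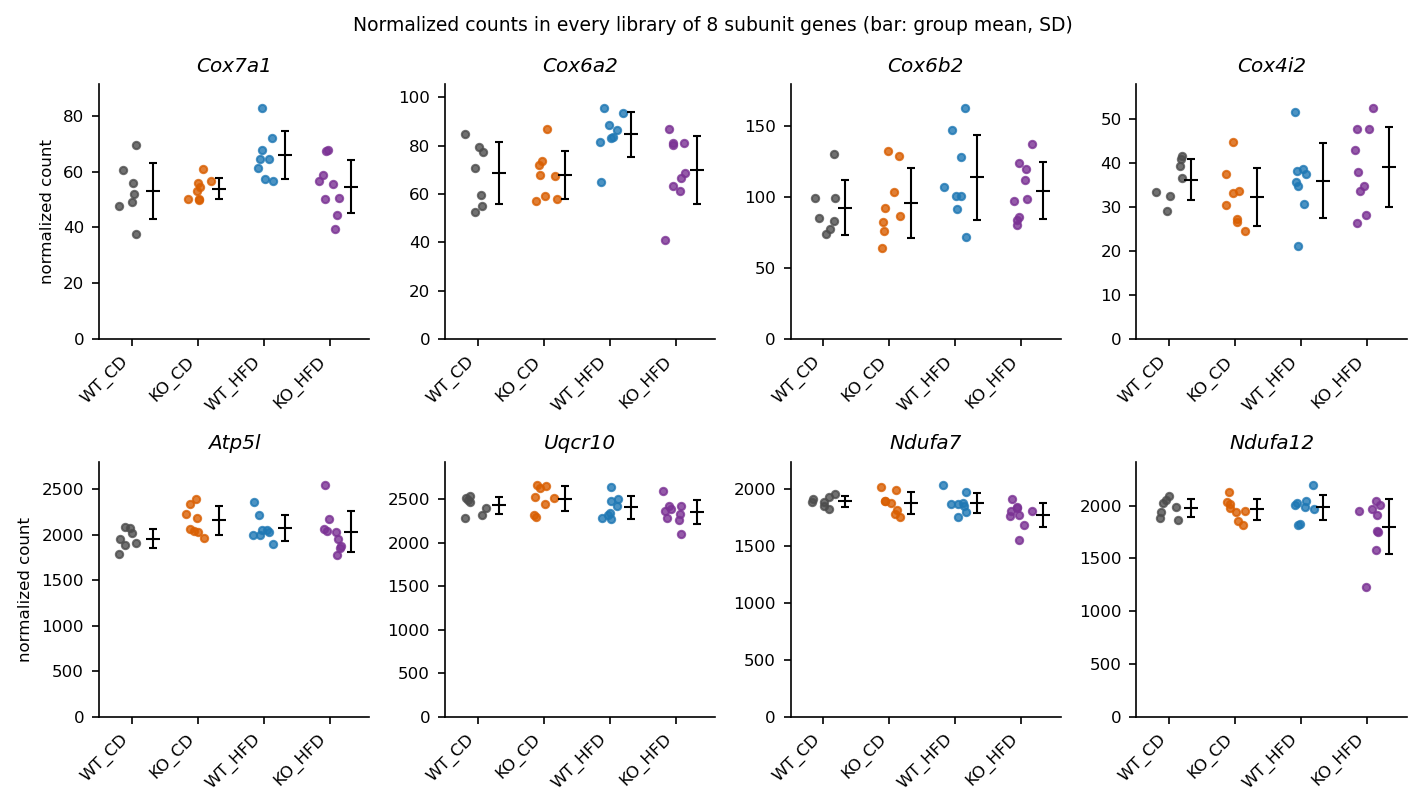
Normalized counts of 8 subunit genes in every library by group, with the group mean and SD as a bar. Cox7a1 and Cox6a2 are highest on average in WT_HFD, Atp5l is lowest on average in WT_CD, 1 KO_HFD library of Ndufa12 lies near 1233, and the groups overlap in all 8 panels.

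In the knockout, diet left 0 of 82 members past the threshold by limma, where 0.0351% of all genes passed, and 0 by limma-voom. There were 7 members at an unadjusted p under 0.05, a share of 8.54% beside 7.04% of all genes. The 7 were 2 without KO_HFD replicate 8 and 11 without the 3 libraries farthest in the mean of the members. Of the log2 fold changes 24 were above 0 and 58 below, with a median of -0.02, while 49.4% of all genes were above 0. The medians by complex were -0.03 for I, -0.01 for II, -0.03 for III, -0.0006 for IV and -0.03 for V. The intervals lay within 1.2-fold for 76 members and within 1.5-fold for all 82.

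Uqcr10, a small accessory subunit of complex III (chromosome 11, 4701973 to 4704342, minus strand), had the smallest p for diet in the knockout. It ran from 2296 over a median of 2517 to 2662 normalized counts in KO_CD and from 2102 over 2368 to 2592 in KO_HFD. The high-fat libraries lay lower with overlap, and the log2 fold change was -0.09 (SE 0.03, limma adjusted p = 0.54). In wild type Uqcr10 ran from 2281 over 2466 to 2535 on control diet and from 2271 over 2380 to 2643 on high-fat diet.

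Sdhb, the iron-sulfur subunit of complex II (chromosome 4, 140961203 to 140979193, plus strand), ran from 2666 over 2751 to 3082 in KO_CD and from 2438 over 2736 to 2781 in KO_HFD. Its log2 fold change was -0.07 (SE 0.03, adjusted p = 0.589), although the medians of the groups were close. The others were Ndufa7 (-0.08, SE 0.03), Ndufa12 (-0.14, SE 0.07), Ndufa3 of the membrane arm (-0.09, SE 0.04), the c subunit gene Atp5g2 (-0.10, SE 0.04) and Atp5j2, subunit f of the synthase (-0.07, SE 0.03). Without KO_HFD replicate 8 the value of Ndufa12 was -0.07 and that of Atp5g2 -0.06.

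In none of the 4 single comparisons did any member separate its groups without overlap, where 0.0251%, 0.0201%, 0.0652% and 0.0552% of all genes did, in the order genotype on control diet, genotype on high-fat diet, diet in wild type and diet in knockout. Over these comparisons 18 of 328 member tests had an unadjusted p under 0.05, a share of 5.49% beside 5.92% of the tests of all genes. Averaged over diets, genotype gave 0 of 82 members by limma (0.00502% of all genes), 0 by limma-voom and 1 at an unadjusted p under 0.05 (5.72% of all genes). That member was Ndufs1, higher in the knockouts with a log2 fold change of 0.04. Without KO_HFD replicate 8 there were 0 members at that level, and 6 without the 3 libraries farthest in the mean of the members. Averaged over genotypes, diet gave 0 of 82 by limma (0.336% of all genes), 0 by limma-voom and 2 at an unadjusted p under 0.05 (11.1% of all genes). The 2 stayed 2 without KO_HFD replicate 8 and were 9 without the 3 farthest libraries. The smallest adjusted p of any member in the 7 comparisons was 0.432.

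**Figure D4:**
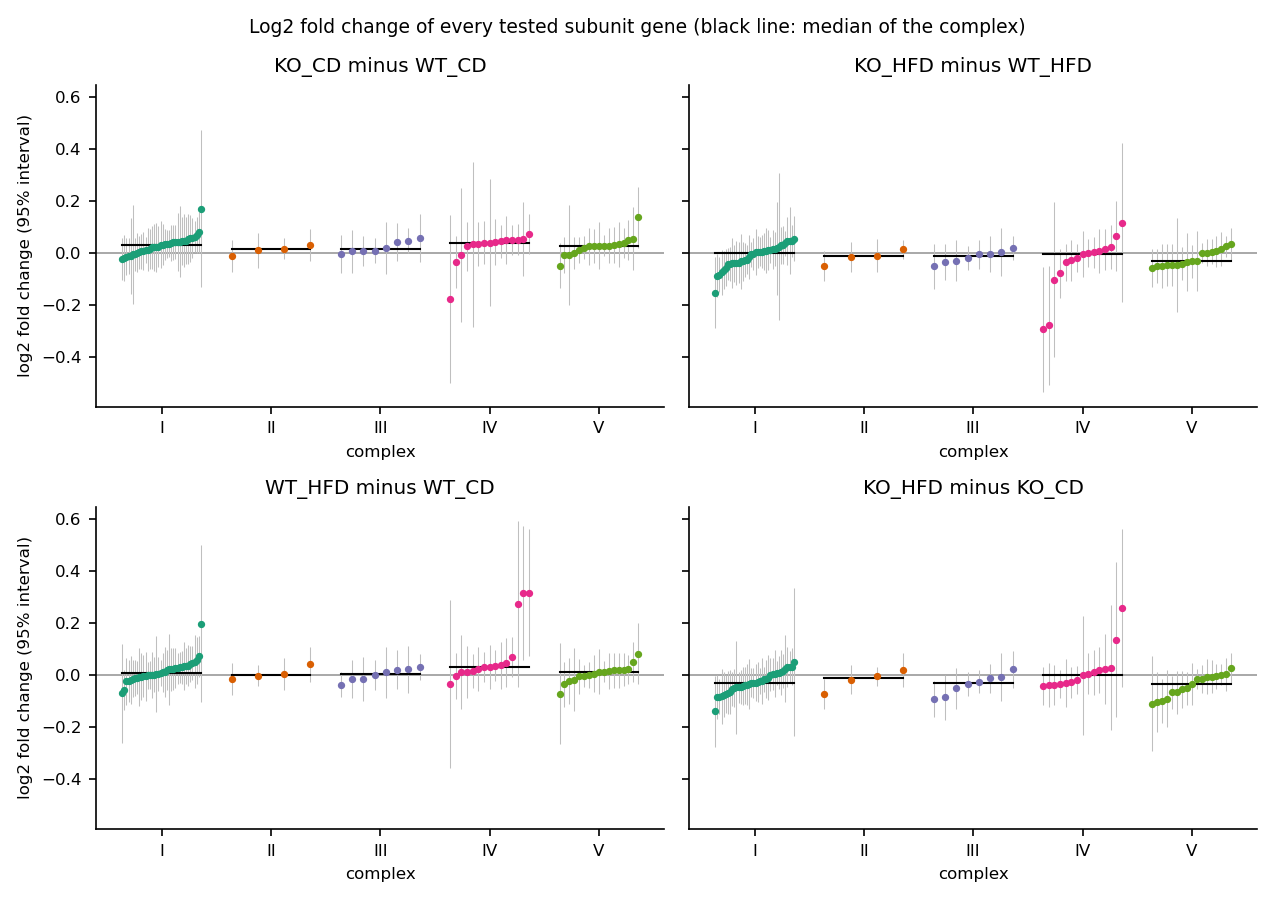
Log2 fold changes of the 82 tested members with their 95% intervals, by complex and ordered by size within a complex, in the 4 single comparisons; black lines are the medians of the complexes. Most members lie within 0.1 of 0, and the widest intervals belong to the low second isoforms of complexes I and IV.

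The interaction of genotype and diet was tested as the difference between the genotype effects on the 2 diets. No member passed by limma, 0 of 82, and none of all genes passed (0%), with 0 by limma-voom as well. There were 6 members at an unadjusted p under 0.05, a share of 7.32% beside 3.39% of all genes. The 6 were 3 without KO_HFD replicate 8, 2 without KO_HFD replicate 9 and 5 without the 3 libraries farthest in the mean of the members. The 3.39% is from the fit with all libraries. Of the estimates 18 were above 0 and 64 below, with a median of -0.04, and 49.7% of all genes were above 0. The smallest p was that of Ndufa11 (chromosome 17, 56717767 to 56722141, plus strand), an accessory subunit of the membrane arm, with -0.15 (SE 0.05, limma adjusted p = 0.999).

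Ndufa11 ran from 1286 over 1377 to 1443 normalized counts in WT_CD, from 1281 over 1448 to 1694 in KO_CD, from 1367 over 1435 to 1555 in WT_HFD and from 1303 over 1415 to 1457 in KO_HFD. Group means were thus higher in KO_CD and WT_HFD than in WT_CD and KO_HFD, by less than the range within KO_CD. The other 5 were Atp5l (-0.17, SE 0.08), Ndufb6 of the membrane arm (-0.13, SE 0.06), Cox6b1, a subunit that faces cytochrome c (-0.11, SE 0.05), Ndufa6 (-0.10, SE 0.05) and Atp5o, the peripheral stalk protein that joins F1 (-0.11, SE 0.05). Medians of the interaction were -0.06 for the NADH module, -0.02 for the quinone module and -0.03 for the membrane arm of complex I. In complex V they were -0.03 for the F1 head and central stalk and -0.08 for the 4 small membrane subunits Atp5j2, Atp5k, Atp5l and Atp5mpl.

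There were 3 members on chromosome X, which also holds the targeted gene: Ndufa1 and Ndufb11 of complex I and Cox7b of complex IV. On control diet their log2 fold changes between genotypes were 0.04 (SE 0.05), 0.01 (SE 0.04) and 0.03 (SE 0.05). On high-fat diet they were -0.03 (SE 0.05), 0.03 (SE 0.03) and -0.00 (SE 0.04). None differed beyond its error.

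Where the groups differed little, the single libraries differed together. After removal of the group means, the median correlation between 2 members over the 32 libraries was 0.405 across 3321 pairs, with 92.4% of pairs above 0. It was 0.384 within complex I, 0.437 within complex III, 0.325 within complex IV and 0.435 within complex V, and 0.420 between members of complexes I and V. The deviations of the complex means correlated most between I and V (r = 0.956) and between I and III (r = 0.954), and least between II and IV (r = 0.652). These values share libraries and size factors and are descriptions of these 32 libraries.

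Single genes differed in how closely they followed the rest. The highest correlations with the mean of the other members were those of Cox4i1 (r = 0.896), Atp5h of the peripheral stalk (0.884) and Ndufa5 of the quinone module (0.869). The lowest were those of Cox6a2 (-0.04), Ndufb2 (0.081), Cox7a1 (0.089) and Atp5s (0.093). Over all 82 members 60 exceeded 0.5 and 10 were under 0.3. Among members of at least 500 normalized counts the correlation was higher for short mRNAs, with a median of 0.765 for 33 members under 700 bases, 0.643 for 21 members of 700 to 1200 bases and 0.568 for 22 longer members.

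The spread within groups was moderate. The SD on the log2 scale had a median of 0.077 over 76 members of at least 500 normalized counts and of 0.068 over all 8939 genes above that level. It was largest for the low isoforms Cox6b2 (0.324), Cox4i2 (0.301) and Ndufa4l2 (0.294). Among abundant members it was largest for Atp5k, subunit e of the synthase (0.184), and Ndufa12 (0.139). Sdha had the smallest SD of the tested members (0.032). It ran from 11633 over 11906 to 12116 normalized counts in WT_CD and from 11720 over 12010 to 12314 in KO_CD. Its ranges were wider on high-fat diet, from 11611 over 11820 to 12647 in WT_HFD and from 11655 over 11913 to 12606 in KO_HFD.

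WT_HFD replicate 6 was among the 3 highest libraries and KO_HFD replicate 9 among the 3 lowest in each of the 5 complexes. Replicate 6 was 0.12 above its group on the log2 scale over all members, KO_HFD replicate 5 was 0.11 above and KO_CD replicate 4 was 0.08 above. KO_HFD replicate 9 was 0.10 below its group and KO_CD replicate 3 was 0.07 below. High and low libraries thus came from both genotypes and both diets. The number of reads on genes did not follow the mean of the members (r = -0.09).

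The 3 highest libraries were also above their groups in the ribosomal protein lists, while WT_HFD replicate 6 was at -0.001 for the subunits encoded by the mitochondrial genome. The deviation of the members correlated with that of 77 mitochondrial ribosomal protein genes (r = 0.917 over 32 libraries, 0.870 without the 3 libraries farthest in the mean of the members) and with that of 82 cytosolic ribosomal protein genes (0.850 and 0.793). For 17 genes of the tricarboxylic acid cycle, which feeds electrons to complexes I and II, r was 0.671 (0.510 without these libraries). For the 13 subunits encoded by the mitochondrial genome it was 0.490 (0.549), and for 19 regulators of mitochondrial biogenesis -0.196. Among cell type markers r was -0.450 for 6 astrocyte genes, 0.368 for 8 neuronal genes, 0.339 for 9 hypothalamic genes, 0.302 for 7 oligodendrocyte genes and 0.406 for 4 genes of thalamus and habenula. The 5 genes outside the members with the highest correlation to their mean were Psmb10 (0.865), Rps23 (0.857), mt-Atp6 (0.846), Ap2s1 (0.845) and Rpl19 (0.838), and the most opposite gene was Ankfy1 (-0.825). In bulk tissue, fewer cells of a type and less RNA per cell cannot be told apart.

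**Figure D5:**
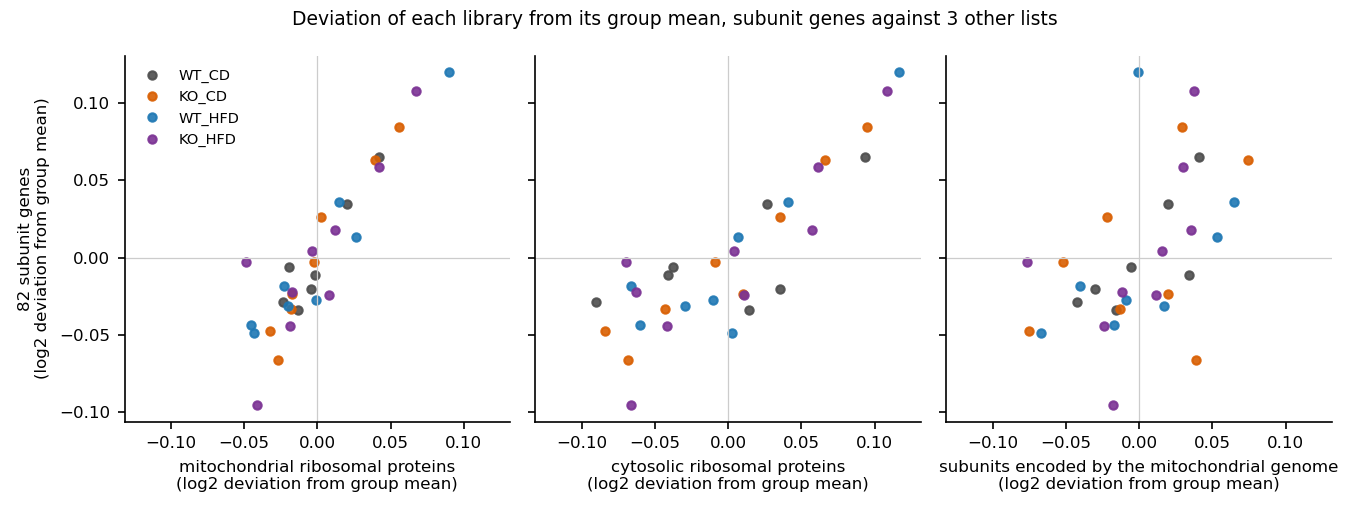
Deviation of each of the 32 libraries from its group mean on the log2 scale, for the 82 tested members (vertical axis) against mitochondrial ribosomal proteins, cytosolic ribosomal proteins and the subunits encoded by the mitochondrial genome (horizontal axes). Points rise along a line in the left and middle panels (r = 0.917 and 0.850) and scatter more in the right one (r = 0.490).

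Partner subunits of the same complexes come from the mitochondrial genome. Its 13 genes took 4.00% ± 0.0727 of reads in WT_CD (SD, n = 7), 4.06% ± 0.125 in KO_CD (n = 8), 4.05% ± 0.071 in WT_HFD (n = 8) and 3.93% ± 0.119 in KO_HFD (n = 9). For each read on a nuclear member there were 4.69 ± 0.0528, 4.67 ± 0.159, 4.69 ± 0.135 and 4.57 ± 0.183 reads on them, in the same order. The ratio differed between groups by less than the SD within KO_HFD, which was the largest SD. KO_HFD lay below WT_CD by more than the SD within WT_CD. These SDs describe the spread between mice and not the error of a difference of means. None of the 13 passed in any comparison. For diet in the knockout all 13 estimates were below 0, with a median of -0.05 and 5 at an unadjusted p under 0.05, where 7.04% of all genes were. Between genotypes on high-fat diet all 13 were below 0 with a median of -0.06 and 3 at that level, where 5.15% of all genes were.

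KO_HFD replicate 8 was apart here too. Its mt-Cytb count, for the cytochrome b of complex III, was 92071 where the next KO_HFD library had 111317, and its mt-Co2 count, for a catalytic subunit of complex IV, was 93989 against 110403. The log2 fold change of mt-Cytb for diet in the knockout was -0.08 (SE 0.03) with it and -0.05 without it, and that of mt-Co2 -0.11 (SE 0.04) with it and -0.07 without it. Without this library 1 of the 13 estimates for diet in the knockout was above 0 and 2 were at an unadjusted p under 0.05. Between genotypes on high-fat diet 0 of 13 were then above 0 and 2 were at that level.

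Genes that assemble and serve the complexes were described by their counts. None of 17 assembly factors of complex I, 4 of complex II, 6 of complex III, 23 tested of complex IV and 6 of complex V passed in any comparison. For genotype on control diet their medians were 0.02, 0.01, 0.01, 0.02 and 0.06, beside a median near 0 over all genes. None of 13 coenzyme Q synthesis genes, 17 genes of the tricarboxylic acid cycle, 19 regulators of mitochondrial biogenesis, 77 mitochondrial ribosomal protein genes and 82 cytosolic ribosomal protein genes passed either. At an unadjusted p under 0.05, 6 of the 77 mitochondrial ribosomal protein genes and 4 of the 19 regulators were counted for diet in the knockout, where 7.04% of all genes were.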

How the data were processed

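The deposited values are log2 values per gene and library, made by the authors: each is the log2 of the reads over the library's size factor, with 0 reads listed as the log2 of 0.1, as the values themselves show. Per the submitters' processing notes the tools included DESeq2 1.28.1 in R 4.0.2, the aligner STAR 2.7.6a with the GRCm38 build, FastQC, and for trimming cutadapt 2.10 through Trim Galore 0.6.2. How reads were counted, and on which strand, is not given in the sources used here. Whole reads were recovered for 100% of values above 0 (tolerance 1e-06 reads). Symbols came from a GRCm38 annotation for 55141 of 55401 identifiers. Lengths are medians of protein-coding transcripts.

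Main tests used limma 3.58.1 (R 4.3.3, statmod 1.5.0) on log2(normalized count + 1), 19928 genes with at least 10 normalized counts in at least 7 libraries, all 4 groups in 1 fit, trend and robust moderation, two-sided, Benjamini-Hochberg over all genes at 0.05. The fit was tested on simulated data. Each library is a separately labelled mouse. Intervals cover the fit's error only. The members and lists were chosen with earlier results of these data known. Members named by rule were the core subunits, isoform families, the highest and lowest level per complex and the 2 smallest p per complex and single comparison; others at an unadjusted p under 0.05, or cited for sequence, spread, correlation or chromosome, were named after their values were seen. Tables and figures used Python with pandas and matplotlib.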

Additional observations from a re-analysis of the deposited data

Results flagged for a closer look

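In groups of 7 to 9 libraries, a library was singled out when its gap to the nearest other library was large against the range of its group, which chance does in about 1 of 20 groups; 184 groups were examined. WT_HFD replicate 6 was the high value in most cases. It held normalized counts of 3090 for Ndufv2, 12647 for Sdha, 19406 for Atp5a1, 4720 for Cox6a1, 9830 for Cox4i1, 3642 for Ndufa4, 2947 for Atp5g1 and 25493 for Atp5b. Its mean log2 value was 10.76 for complex I and 11.76 for complex II. KO_HFD replicate 5 was high for Uqcrq (2398) and Ndufa4l2 (79.3), and WT_CD replicate 4 for Cox6c (4329). WT_CD replicate 5 was low for Atp5a1 (17242) and WT_HFD replicate 5 for Cox6a2 (65.1).

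Some rows with a matching symbol fell outside the rule because the annotation does not call them protein-coding. Of these, Ndufb1-ps, annotated as a bidirectional promoter long noncoding RNA, had a mean of 1001 normalized counts. The processed pseudogene Ndufb4c had 964 and the processed pseudogene Atp5l2-ps 57.6. How many of their reads belong to the parent genes was not tested.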

How the results depend on the processing

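No member was called in any of the 7 comparisons under any alternative, and the smallest adjusted p of a member ranged from 0.211, without the 3 libraries farthest in the mean of the members, to 1 in mice of 149 days only. The medians by complex moved by less than the spread between libraries in all 660 complex and setting combinations. Because the medians were themselves smaller than that spread, this count could not show whether a median kept its direction. Changes of sign were counted only for the tested members named by rule, in the 4 single comparisons. Of these 3194 member values, 157 changed sign, none of them called. Some of these members were named for a small p in the same comparisons, so the count is no rate for all members. With the replicate number as a block, members called stayed at 0 in each comparison. Same-numbered libraries of different groups correlated with a median r of 0.005 over 45 pairs (8 over 0.1). For the other pairs between groups the median was -0.0007 over 338 pairs (40 over 0.1). These correlations do not show whether the mice were paired. Over all genes, calls for diet in wild type were 5, against 1 with age as a term, 2 with blood and meningeal marker levels as terms or only the 2 groups compared, 3 with the replicate block, without trend, or without the 4 libraries highest on the first component, and 8 with quality weights. For diet in knockout they were 7, against 3 without trend or without KO_HFD replicate 8, 4 on CPM and 16 with blood and meningeal terms. For diet averaged over genotypes they were 67, against 12 with age as a term, 24 with blood and meningeal terms, 43 without a filter, and 44 and 38 without the 3 and the 4 libraries. A genotype call rose from 1 to 2 without a filter or without trend. Leaving out libraries was chosen after seeing the data. With medians this close to 0, the direction of a complex median is not settled: that of complex IV for diet in knockout ran from -0.02 to 0.01 over the alternatives. The low counts of the second isoforms limit the precision of their values.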
